A study of Mus musculus with 12 samples.

Results

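The genes described here are 47 genes of the DNA replication machinery, read in RNA-seq libraries of mouse colonic organoids. The members were listed by name and matched to the Ensembl identifiers of the deposited expression table through the GENCODE vM21 annotation. All 47 were among the 48795 genes of the table, and all 47 passed the filter on low values that left 14856 genes for testing. They cover 8 roles, from the licensing of replication origins to the supply of nucleotides and the entry into S phase.

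Organoids were grown from colonic crypts of C57BL/6 mice, either wild type (WT) or AhR deficient (KO), and total RNA was sequenced in 12 libraries. AhR, the aryl hydrocarbon receptor, is a ligand-activated transcription factor. In the stem cell condition both genotypes were kept in WENR medium, which holds Wnt-3A, Noggin, Rspondin-1 and EGF. In the differentiated condition both genotypes spent 3 days in ENR medium, which lacks Wnt-3A. Each of the 4 groups, called WT stem, KO stem, WT differentiated and KO differentiated below, had 3 libraries. The labels do not name the AhR allele, the age of the mice, or whether each library of a group is from an animal of its own, so the p-values measure the spread between these libraries, which may be technical.

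Values are normalised counts, that is reads per gene scaled between libraries, and recovered depth was 25.1 to 99.0 M reads per library. The members were deeply covered, with at least 31 reads for each member in each library. Ahr itself was read at 1762, 1746 and 1909 in WT stem and 2503, 2831 and 2690.3 in KO stem, and at 2127, 2236 and 2260 in WT differentiated and 3824, 3356 and 3110 in KO differentiated. A gene-level count does not show which exons carry the reads, so the higher Ahr counts of the KO libraries do not check the deletion, and KO stands throughout for the libraries labelled AhR deficient. Cyp1b1, a cytochrome P450 gene known as an AhR target, was lower in every KO library, with 8502, 7479 and 8452 in WT stem against 571, 408 and 269 in KO stem. The epithelial markers Epcam and Krt8 were high in all 12 libraries, but they and other colonic epithelium markers differed between groups. Mean Epcam was 43686 in WT stem, 32492 in KO stem, 111310 in WT differentiated and 87626 in KO differentiated. Krt20 was at 33.4 to 366 in the stem libraries. Cdx1 was at 612 to 924 in KO stem against 3604 to 4841 in WT stem. WT stem library 1 stood apart: 12 fibroblast and muscle markers summed to 22290 there, with Vim at 13196, against 55.0 to 643 in the other 11 libraries, while the fibroblast markers Dcn and Lum were at 0 there. That library also had the highest count of its group for 45 of the 47 members, a share that was not computed over all tested genes. The counts of calls and median differences that rest on that library are also given without it. The part of the other cells in its values was not tested.

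DNA is copied once per cell cycle. The origin recognition complex marks the start sites and, with Cdc6 and Cdt1, loads the MCM helicase as an inactive ring, a step called licensing that geminin (Gmnn) blocks once S phase has begun. The Cdc7 and Dbf4 kinase and the cyclin E kinase then let Cdc45 and the GINS complex join MCM, which forms the active CMG helicase. Polymerase alpha and primase start each strand, polymerase epsilon extends the leading strand and polymerase delta the lagging strand, held by the PCNA ring that the RFC complex loads. Transcription of many of these genes is driven by E2F factors when cells leave quiescence. In the colon, dividing cells sit in the lower crypt where Wnt signals are high, and they stop dividing as they mature.

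Sequences of the RefSeq promoter windows (250 bases before to 50 after the transcript start, build GRCm38.p6) are shown for the 4 members with the largest WT fall among those that hold an E2F-type sequence, since these letters recur among the members. The letters searched were TTTCCCGC, TTTCGCGC, TTTGCCGC and TTTGGCGC on both strands, and matches are in capitals in each line, which runs 5′ to 3′ along the gene.
Uhrf1 (chr17:56304063-56304362, plus strand): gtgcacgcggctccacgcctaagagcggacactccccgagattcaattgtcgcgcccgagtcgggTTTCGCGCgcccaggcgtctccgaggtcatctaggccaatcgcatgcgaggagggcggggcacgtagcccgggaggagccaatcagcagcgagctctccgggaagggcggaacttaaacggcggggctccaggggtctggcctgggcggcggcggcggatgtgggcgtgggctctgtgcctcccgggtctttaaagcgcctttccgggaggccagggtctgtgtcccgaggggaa
Mcm5 (chr8:75109259-75109558, plus strand): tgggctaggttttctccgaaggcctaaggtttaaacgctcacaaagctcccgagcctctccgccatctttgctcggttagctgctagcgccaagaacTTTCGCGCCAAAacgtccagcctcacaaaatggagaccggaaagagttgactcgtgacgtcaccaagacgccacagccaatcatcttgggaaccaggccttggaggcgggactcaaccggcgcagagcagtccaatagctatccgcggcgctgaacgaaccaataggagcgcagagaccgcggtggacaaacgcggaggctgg
Pola1 (chrX:93632106-93632405, minus strand): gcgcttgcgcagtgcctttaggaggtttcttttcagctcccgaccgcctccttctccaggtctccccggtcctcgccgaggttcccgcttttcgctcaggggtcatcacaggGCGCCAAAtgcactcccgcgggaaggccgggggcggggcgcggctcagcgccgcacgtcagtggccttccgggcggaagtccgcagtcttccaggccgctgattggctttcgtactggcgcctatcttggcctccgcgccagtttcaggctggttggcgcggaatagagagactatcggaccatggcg
Mcm3 (chr1:20820263-20820562, minus strand): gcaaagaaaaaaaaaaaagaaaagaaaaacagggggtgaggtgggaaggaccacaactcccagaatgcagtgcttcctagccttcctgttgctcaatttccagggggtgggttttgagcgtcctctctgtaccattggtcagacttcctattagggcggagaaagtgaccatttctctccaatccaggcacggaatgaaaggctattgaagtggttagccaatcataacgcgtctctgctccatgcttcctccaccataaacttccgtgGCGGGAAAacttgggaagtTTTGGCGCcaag
The single match of Uhrf1 began 185 bases before the transcript start of the window shown, which lies inside the longer GENCODE interval of the gene. Another promoter window of Uhrf1 held no match. Mcm5 held 2 overlapping matches, 153 and 149 bases before the start. Pola1 held 1 match, 138 bases before the start. In Mcm3 both matches lay downstream, at 20 and 39 bases after the start.

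At least 1 promoter window was matched for 38 of the 47 members, and 14 of these genes (36.8%) held at least 1 of the 4 letter strings in any window. Counted by window, 14 of 44 member windows (31.8%) held a match, against 3.75% of 13809 windows of tested genes. Uhrf1, Mcm7 and Lig1 each also had a window without a match. Among the tested genes with a window the share was 4.52% of 10828, and among all genes of the promoter table it was 2.61%. With TTTCCCGC and TTTGGCGC alone, 11 members (28.9%) held a match, against 3.26% of the tested genes. Besides the 4 genes shown, the matches were in Cdc6, Cdt1, Gins3, Lig1, Mcm6, Mcm7, Orc1, Pold1, Pole2 and Rfc3. The letters GCGTG, the core of the AhR response element, were in 21 of the 38 members (55.3%), close to the 54.9% of tested genes. The letters CCAAT were in 55.3% of the members and 42.9% of tested genes. These are letter matches in windows of 1 length and do not show binding. The 14 members with an E2F-type match had a median log2 change on differentiation of -2.92 in WT, and the 24 without one had -2.82.

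Withdrawal of Wnt-3A lowered every replication gene in both genotypes. In WT organoids all 47 members fell, by 1.76-fold (Rfc1) to 18.2-fold (Rrm2) with a median of 6.78-fold, and in KO organoids all 47 fell by 1.62-fold (Rfc1) to 12.6-fold (Rrm2) with a median of 4.42-fold. For each member, in each genotype, all 3 differentiated libraries lay below all 3 stem libraries. The members together took 0.357% to 0.493% of all normalised counts in WT stem libraries, 0.331% to 0.352% in KO stem, 0.0670% to 0.0705% in WT differentiated and 0.0812% to 0.0847% in KO differentiated.

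The fall was tested with limma on log2(normalised count + 1), with adjusted p-values over all tested genes and a threshold of 0.05, and log2 changes below are on that scale with their standard error (SE). The median log2 change of the members was -2.73 in WT and -2.15 in KO, against 0.01 over all tested genes in both. The highest adjusted p of any member was 0.000953 in WT and 0.000245 in KO. Calls in this direction were common in the whole table, with 35.9% of tested genes called lower in WT and 33.6% in KO, and 37.3% and 37.2% with no overlap between conditions. Large falls were less common in the table: 36 of 47 fell at least 4-fold in WT against 6.44% of tested genes, and 16 of 47 fell at least 8-fold against 3.22%. In KO, 27 of 47 fell at least 4-fold against 4.99% of tested genes, and 5 of 47 at least 8-fold against 2.39%. Bulk RNA does not tell fewer dividing cells from less of each transcript per cell. Without WT stem library 1 all 47 falls in WT remained called, and the median was -2.58.

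**Figure D1:**
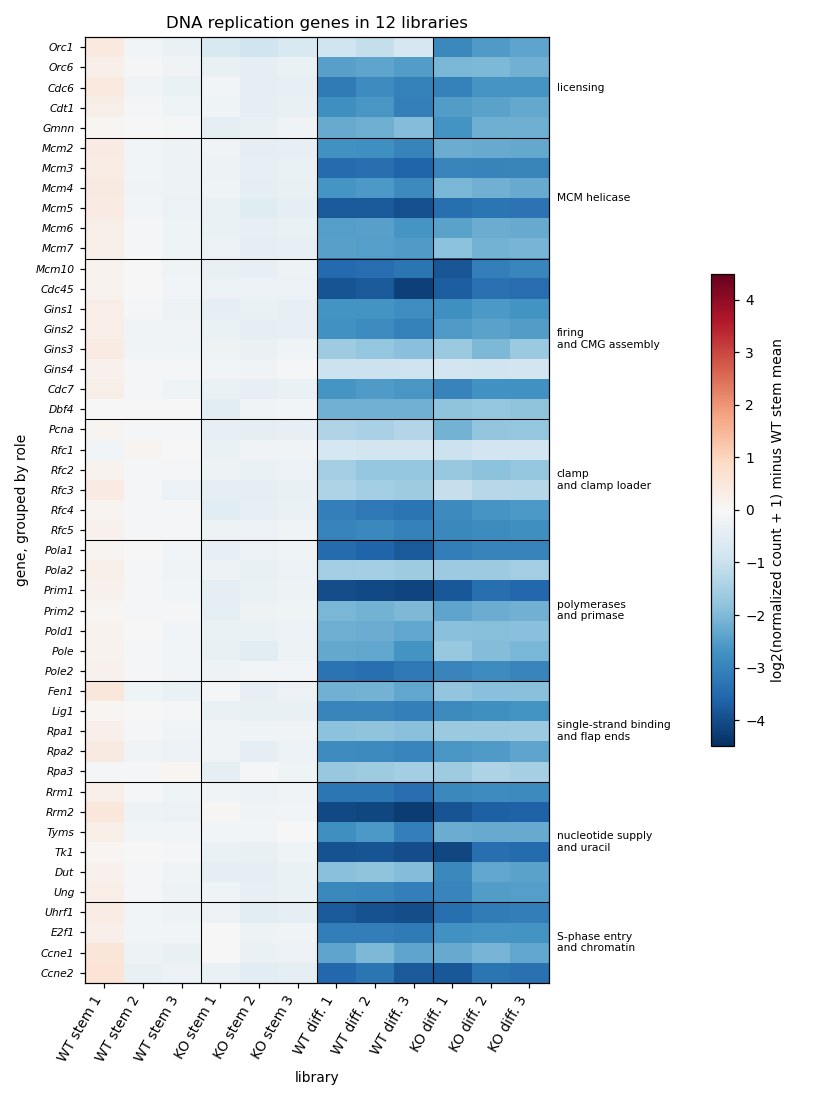
Heat map of the 47 replication genes (rows, grouped by role) in the 12 libraries (columns), coloured by log2(normalised count + 1) minus the mean of the WT stem libraries. The differentiated libraries are blue throughout, the KO stem libraries are a shade below WT stem, and WT stem library 1 is the reddest column.

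The test called 20 of 47 members higher in KO than in WT differentiated organoids and 3 lower (Orc1, Dut and Pcna), against 13.8% of tested genes called higher and 13.9% called lower. Leaving out WT differentiated library 3 took the calls of 8 members (Mcm2, Mcm4, Mcm5, Orc6, Cdt1, Cdc45, Prim1 and Lig1), all among the higher ones. The median log2 difference, KO minus WT, was 0.32 over the members and 0.02 over all tested genes. The largest increases were those of Uhrf1 (0.68), Pola1 (0.57), Mcm2 (0.57), Tyms (0.56), Mcm4 (0.54) and Pole (0.52), each a ratio of means between 1.43 and 1.61. For 29 members all 3 KO libraries lay above all 3 WT libraries, where 26.8% of tested genes did; for 6 (Orc1, Pcna, Dut, Rfc1, Prim2 and Cdc7) all KO libraries lay below, where 26.4% of tested genes did, and 12 overlapped. In all, 37 members had a difference above 0, of which Mcm10, Gins1, Ccne1 and Ccne2, none of them called, turned below 0 under quantile normalisation. Of the 14856 tested genes, 7851 had a difference above 0.

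Markers of the colonic epithelium also differed in this comparison. Krt20, a keratin of mature colonocytes, was read at 30197, 22425 and 28678 in WT differentiated and 3248, 9106 and 8947 in KO differentiated (log2 difference -2.07 ± 0.44, adjusted p = 0.00684). All 8 colonic epithelium markers had a difference below 0, and 6 were called lower in KO, where 13.9% of tested genes were. Their summed counts ranged from 1065300 to 1123900 in WT and from 864600 to 922810 in KO differentiated libraries, with Krt8 the highest in each. Fibroblast and muscle markers summed to 115 to 169 in WT and 92.0 to 104 in KO differentiated libraries. Their part in the difference of the replication genes was not tested. The count of 23 calls moved most without WT differentiated library 3, the shallowest of the series, when 12 members were called higher and 3 lower.

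In the stem cell condition all 47 members had a log2 difference, KO minus WT, below 0, from -0.76 for Orc1 to -0.07 for Rrm2, with a median of -0.30 against -0.04 over all tested genes. Of the 14856 tested genes, 8504 had a difference below 0. The test called 5 members lower and none higher: Orc1, Pcna, Rfc4, Lig1 and Pold1, against 3.09% of tested genes called lower; 30 of 47 members had an unadjusted p under 0.05, where 24.6% of tested genes did. All KO stem libraries lay below all WT stem libraries for 32 of 47 members, and for 17.9% of tested genes. The number of calls was unstable: leaving out library 2 of WT, or library 1 or 2 of KO, left none, leaving out library 3 of KO left 1, leaving out library 3 of WT gave 9, and DESeq2 on all libraries called 19. Without WT stem library 1 the median difference was -0.20 and 2 members were called, with Rrm2 (0.18), Ccne1 (0.09), Tyms (0.05) and Fen1 (0.002) above 0; 32 of 47 members had all KO stem libraries below WT stem libraries 2 and 3, where 30.2% of tested genes did. Summed counts of 10 immune, blood and endothelial markers, nearly all of them from Cd68, were 1621 to 3308 in WT stem and 4388 to 4557 in KO stem libraries, while the leukocyte marker Ptprc was at 0 to 5.97 in all libraries; their part in the difference was not tested.

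The fitted fall on Wnt-3A withdrawal was smaller in KO than in WT for 44 of 47 members, and for 41 of 47 under quantile normalisation. Over all tested genes the KO log2 change lay above the WT log2 change for 8064 of 14856. The interaction test, the KO log2 change minus the WT log2 change, called 23 of 47 members, all of them with the smaller fall in KO, against 5.12% of tested genes called in that direction. Its median was 0.56 over the members and 0.04 over all tested genes. The largest values were those of Uhrf1 (1.09 ± 0.19, adjusted p = 0.0124), Mcm5 (0.93 ± 0.20, adjusted p = 0.0195), Pole (0.89), Mcm2 (0.88), Rfc4 (0.87) and Mcm4 (0.86). By role the calls were 6 of 6 MCM helicase genes, 5 of 7 polymerase and primase genes, 3 of 8 firing and CMG assembly genes and 2 each of the 5 licensing, 6 clamp and clamp loader, 6 nucleotide supply and 4 S-phase entry genes. Of the 5 genes for single-strand binding and flap ends, 1 was called. Orc1, Dut and Pcna were the 3 members with values below 0, and none of these passed the test. Without WT stem library 1 the test called 22 members with the smaller fall in KO and 1 (Orc1) with the larger, at a median of 0.46. The count dropped to 9 when KO stem library 2 or WT differentiated library 3 was left out, and to 12 or 13 when the one left out was KO stem library 1 or 3, WT differentiated library 1 or KO differentiated library 2.

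**Figure D2:**
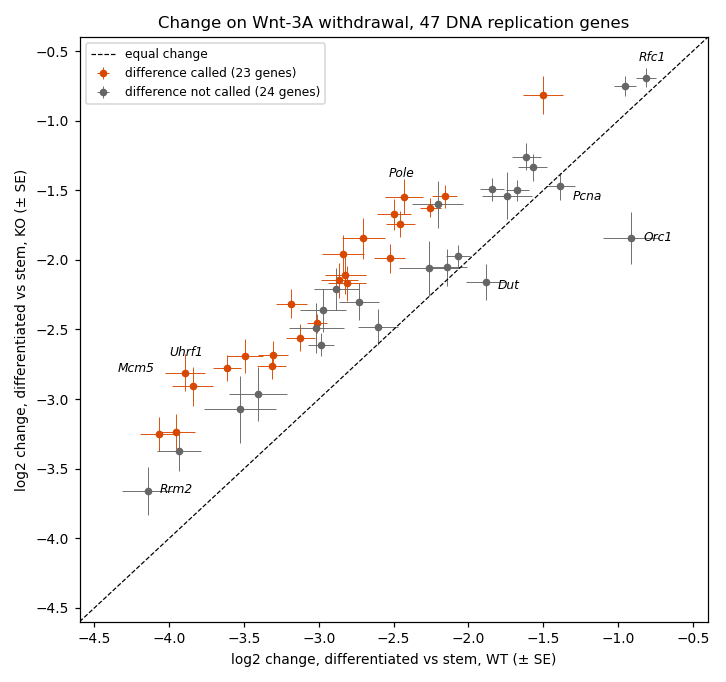
Log2 change on Wnt-3A withdrawal in KO (vertical axis) against WT (horizontal axis) for the 47 replication genes, with SE bars and a dashed line of equal change. Orange points are the 23 genes called in the interaction test, which all lie above the line, and Orc1, Dut and Pcna lie below it.

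**Figure D3:**
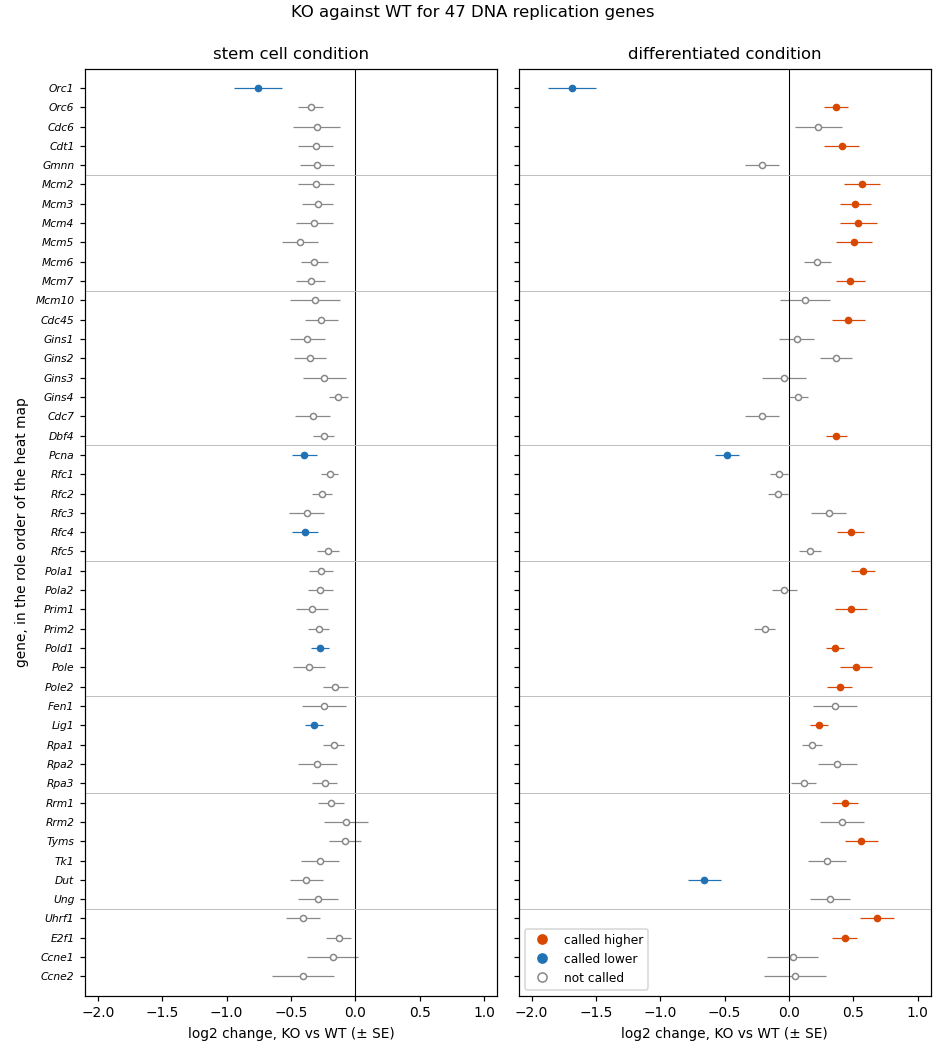
Log2 difference KO against WT (± SE) for each of the 47 genes in the stem cell condition (left) and the differentiated condition (right), with filled points for called genes. All points on the left lie below 0, and 37 of 47 on the right lie above 0, with Orc1 furthest to the left in both. Under quantile normalisation 4 of the 37, none called, turn below 0.

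Among the licensing factors, Orc1, the largest subunit of the origin recognition complex (ENSMUSG00000028587, GRCm38 chromosome 4, 108579423 to 108614833, plus strand), had KO values below WT in both conditions. It was read at 1001, 683 and 609 in WT stem and 461, 403 and 464 in KO stem. After withdrawal of Wnt-3A it was at 396, 355 and 445 in WT and 99.8, 128 and 143 in KO. No KO library reached a WT library of the same condition, and KO stem and WT differentiated libraries lay in a similar range. Orc1 was lower in KO in both conditions, with log2 differences of -0.76 ± 0.19 (SE, adjusted p = 0.0365) in stem and -1.69 ± 0.19 (adjusted p = 0.000328) in differentiated organoids. Its fall was 0.91 in WT and 1.84 in KO on the log2 scale, so that 52.2% and 28% of the stem level was left, and the interaction of -0.93 ± 0.26 missed the threshold (adjusted p = 0.0512). The stem difference lost its call without 5 of the 6 libraries, whereas the differentiated difference was called under each alternative and without each library.

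Orc6, another subunit of that complex, followed the majority. It was read at 2341, 1932 and 1828 in WT stem, 1621, 1494 and 1656 in KO stem, 367, 388 and 349.8 in WT differentiated and 482, 492 and 449 in KO differentiated. KO libraries were below WT in stem and above WT in differentiated organoids, with no overlap in either, and the interaction was 0.71 ± 0.13 (adjusted p = 0.0151). Orc6 shares 6.93% of its exon bases with Vps35 on the opposite strand, which was read at a mean of 11870 against 1117 for Orc6. Cdt1, the MCM loader, was read at 4673, 3682 and 3406 in WT stem and 3378, 2944 and 3101 in KO stem, and at 575, 629 and 454 in WT differentiated and 672, 723 and 793 in KO differentiated. The differentiated groups did not overlap, with a difference of 0.41 ± 0.14 (adjusted p = 0.0461); that call was lost without 5 of the 6 libraries in turn, with no filter, under quantile normalisation and with only the groups compared. Gmnn, the inhibitor of Cdt1, was read at 406, 422 and 502 in WT differentiated and 302, 428 and 429 in KO differentiated, which overlapped. Gmnn fell by 2.14 in WT and 2.05 in KO on the log2 scale, with no interaction called (0.09 ± 0.19, adjusted p = 0.799). The ratio of Cdt1 to Gmnn counts in the same library had a mean of 2.00 ± 0.23 (SD, n = 3) in WT stem and 1.99 ± 0.26 in KO stem. It ranged from 0.905 to 1.49 in WT differentiated and from 1.69 to 2.22 in KO differentiated libraries, as a description with no test. Cdc6, the other loading factor, fell 8.28-fold in WT and 5.61-fold in KO, and its genotype groups overlapped in both conditions.

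All genes of the MCM helicase ring fell in both genotypes, and all were called in the interaction. Mcm3 (ENSMUSG00000041859, GRCm38 chromosome 1, 20802968 to 20820312, minus strand) was read at 13563, 9957 and 9130 in WT stem and 9220.4, 8345 and 8763 in KO stem. In differentiated organoids it was at 966, 1019 and 872 in WT and 1373, 1328 and 1370.3 in KO. The stem groups overlapped through 1 KO library, and the differentiated groups were apart. Mcm3 thus kept 8.75% of its stem level in WT and 15.5% in KO, with an interaction of 0.80 ± 0.17 (adjusted p = 0.0205). Mcm5, with the overlapping E2F-type matches in its promoter, was read at 12950, 9157 and 8263 in WT stem and 8092, 6848 and 7265 in KO stem. It was at 723, 720.2 and 634 in WT differentiated and 934, 1020 and 995.3 in KO differentiated. The genotypes did not overlap in either condition and changed places between them. The fall was 14.6-fold in WT and 7.53-fold in KO.

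Mcm2 was read at 1337, 1321 and 1111 in WT differentiated and 1924, 1844 and 1799 in KO differentiated, a difference of 0.57 ± 0.14 (adjusted p = 0.0131). Mcm4 was read at 1202, 1274 and 1043 against 1832, 1694 and 1579.5, and Mcm7 at 2580.1, 2549 and 2417 against 3952, 3241 and 3351. All KO libraries exceeded all WT libraries for these genes, and the differences were 0.54 ± 0.14 for Mcm4 and 0.48 ± 0.11 for Mcm7. Mcm6 was the exception in size, at 2729.6, 2766 and 2437 in WT and 2858, 3202 and 3176 in KO differentiated, groups that did not overlap but whose difference of 0.22 ± 0.10 missed the threshold (adjusted p = 0.14). The stem differences of the MCM genes lay between -0.43 (Mcm5) and -0.29 (Mcm3), with none called. The interaction of Mcm7 (0.83 ± 0.16) was called without each library and under each alternative, and that of Mcm6 (0.54 ± 0.15) lost its call in 10 of 12 repeats with 1 library left out. In such repeats the call was lost in 7 of 12 for Mcm4, 3 for Mcm2 and 2 each for Mcm3 and Mcm5.

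The MCM proteins form a ring with 1 copy of each, but their transcripts were not at 1 level. Per kilobase of principal transcript, the mean normalised count in WT stem ran from 2164 (Mcm4) to 5285 (Mcm6), a 2.44-fold span, and in KO stem from 1706 to 4199, a 2.46-fold span, in the same order of genes. In WT differentiated it ran from 205 (Mcm5) to 909 (Mcm6), a 4.44-fold span, and in KO differentiated from 291 (Mcm5) to 1187 (Mcm7), a 4.08-fold span. Mcm5 moved from the middle of the order in stem organoids to the lowest place in differentiated organoids in both genotypes. The lowest gene in stem depended on the length used: over the union of all annotated exons it was Mcm2, while Mcm5 stayed lowest in differentiated organoids. The spans depended on it too. Over that union they were 2.52-fold in WT stem and 2.51-fold in KO stem. In differentiated organoids they were 3.28-fold in WT, where Mcm7 was then the highest, and 3.225-fold in KO.

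**Figure D4:**
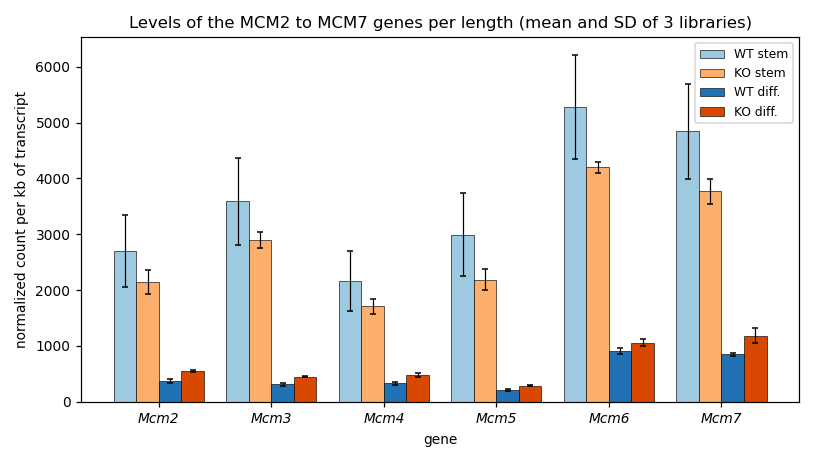
Normalised count per kilobase of principal transcript for Mcm2 to Mcm7 in the 4 groups (bars from 0, mean of 3 libraries, error bars SD). The stem bars of Mcm6 and Mcm7 are the tallest, and Mcm5 is the shortest pair in differentiated organoids.

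Among the genes of origin firing and CMG assembly, Cdc45, the CMG subunit that joins MCM at firing, had one of the largest falls. Counts were 2077, 1823 and 1712 in WT stem and 1541, 1558 and 1562 in KO stem, then 127, 134 and 99.9 in WT differentiated and 142, 179.6 and 173 in KO differentiated. The genotypes were apart in both conditions, with KO lower in stem and higher in differentiated organoids. The fall was 15.6-fold in WT and 9.41-fold in KO, and the interaction was 0.72 ± 0.18 (adjusted p = 0.0345). That interaction call was lost without 8 of the 12 libraries in turn, with no filter and under quantile normalisation. Mcm10, which helps activate the helicase, fell 10.7-fold and 7.56-fold, and its KO differentiated libraries were spread over 168, 288 and 318, which enclosed the WT values of 213, 225 and 248.

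The subunits of the GINS complex had falls of different size, which were not tested against each other. Gins1 fell 6.78-fold in WT and 4.96-fold in KO, Gins2 7.36-fold and 4.43-fold, and Gins3 3.42-fold and 2.92-fold. Gins4 was read at 2175, 1798 and 1819 in WT stem and 996, 979 and 1002 in WT differentiated, and at 1755, 1719 and 1794 in KO stem and 1051, 1031 and 1050.5 in KO differentiated. That left 51.4% of its stem level in WT and 59.5% in KO, the second smallest fall of the members in KO. Gins2 shares 67.3% of its exon bases with Gse1 on the opposite strand, and the use of strand in counting is not known, so its values carry that limit. Dbf4, the activator of the Cdc7 kinase, was read at 690.4, 702 and 704 in WT differentiated and 882, 931 and 896 in KO differentiated, a difference of 0.37 ± 0.08 (adjusted p = 0.00807). Cdc7 itself was read at 96.1, 104 and 99.9 and 76.2, 92 and 91.4, where KO lay below WT but the difference of -0.21 ± 0.13 was not called. The ratio of Cdc7 to Dbf4 counts had a mean of 0.143 ± 0.0045 (SD, n = 3) in WT differentiated and 0.0957 ± 0.0082 in KO differentiated libraries, against 0.197 ± 0.030 and 0.186 ± 0.028 in the stem condition.

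Pcna, the sliding clamp that holds the polymerases on DNA (ENSMUSG00000027342, GRCm38 chromosome 2, 132249162 to 132253314, minus strand), was lower in KO in both conditions. It was read at 18606, 16373 and 15879 in WT stem and 12985, 12502 and 13098 in KO stem. It was at 6558, 6169 and 6709.6 in WT differentiated and 3917, 4976 and 5110.2 in KO differentiated. Neither condition showed an overlap between genotypes. The differences were -0.40 ± 0.10 in stem (adjusted p = 0.0331) and -0.48 ± 0.10 in differentiated organoids (adjusted p = 0.00496), and the fall was 2.62-fold in WT and 2.76-fold in KO, so the interaction was near 0 (-0.09 ± 0.13). The stem call was lost without 5 of the 6 libraries in turn and under 3 of 10 other alternatives, and the differentiated call under none of them. The ratio of Pcna to Mcm3 counts had a mean of 1.59 in WT stem and 6.85 in WT differentiated libraries, and of 1.47 in KO stem and 3.44 in KO differentiated libraries. An annotated pseudogene copy, Pcna-ps2, held at most 140.2 normalised counts in any library.

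Rfc1, the large subunit of the clamp loader, had the smallest fall of all members. Its counts were 4180.2, 4888 and 4498 in WT stem and 2608, 2548 and 2548 in WT differentiated, and at 3659.7, 4092 and 4047 in KO stem and 2327, 2463 and 2510.1 in KO differentiated. The share of the stem level left was 56.8% in WT and 61.9% in KO. Rfc4, a small subunit of the loader, fell 9.13-fold in WT and 4.98-fold in KO. Rfc4 counts were 1943, 1723 and 1696 in WT stem, 1243, 1394 and 1455 in KO stem, 211, 192 and 184 in WT differentiated and 242, 284 and 296 in KO differentiated. KO was below WT in stem (-0.39 ± 0.10, adjusted p = 0.0474) and above WT in differentiated organoids (0.48 ± 0.10, adjusted p = 0.00747), with an interaction of 0.87 ± 0.15 that held without each library. The stem call of Rfc4 was lost without each of the 6 libraries in turn and under 6 of 10 other alternatives. Rfc5 fell 7.97-fold and 6.11-fold, Rfc2 3.19-fold and 2.83-fold, and Rfc3 2.88-fold and 1.75-fold. The loader subunits thus spanned falls of 1.76-fold to 9.13-fold in WT. Rfc4 shares 12.7% of its exon bases with Eif4a2, Rfc2 15.1% with Lat2 and Rfc5 10.7% with Wsb2, all on the opposite strand. Eif4a2 was read at a mean of 9669 against 905 for Rfc4, and Wsb2 at 5717 against 2382 for Rfc5. Lat2 was at 9.1 against 2713 for Rfc2.

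Among the polymerases, Pola1, the catalytic subunit of polymerase alpha (ENSMUSG00000006678, GRCm38 chromosome X, 93304767 to 93632155, minus strand), was read at 3443, 3154 and 2945 in WT stem and 2475, 2662 and 2792 in KO stem. In differentiated organoids it was at 288, 258 and 232 in WT and 368, 391 and 395 in KO. The genotypes did not overlap in either condition, and they changed order. Pola1 fell 12.3-fold in WT and 6.87-fold in KO, with a differentiated difference of 0.57 ± 0.09 (adjusted p = 0.00197) and an interaction of 0.84 ± 0.13 (adjusted p = 0.0098). Its partner Pola2 behaved otherwise, at 938, 972 and 924 in WT differentiated and 906, 906 and 952 in KO differentiated, groups that overlapped, after a fall of 3-fold and 2.52-fold.

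Of the primase subunits, the genotypes stood in opposite order after differentiation. Prim1, the catalytic one, was read at 2035, 1698 and 1642 in WT stem and 1304, 1436 and 1506 in KO stem, then at 111, 105 and 99.9 in WT differentiated and 125, 168 and 153 in KO differentiated. Every KO differentiated library exceeded every WT one, after falls of 17-fold in WT and 9.52-fold in KO. Prim2, the regulatory one, was read at 478, 454 and 482 in WT and 380.1, 422 and 439 in KO differentiated, with all KO libraries below WT and a difference of -0.19 ± 0.08 that was not called. Pold1, the catalytic subunit of polymerase delta, was read at 3947, 3536 and 3279.9 in WT stem and 2941, 2941 and 3004 in KO stem, and at 783, 761 and 704 in WT differentiated and 961, 946 and 975 in KO differentiated. Pold1 was called in each comparison between genotypes, at -0.27 ± 0.07 in stem, 0.36 ± 0.07 in differentiated organoids and 0.63 ± 0.10 for the interaction. Its stem call was lost without 5 of the 6 libraries in turn and under 5 of 10 other alternatives. Pole, the catalytic subunit of polymerase epsilon, was read at 769, 749 and 591 and 1147, 975 and 903 in WT and KO differentiated libraries, a difference of 0.52 ± 0.12 (adjusted p = 0.0113). Pole2, an accessory subunit, was at 151, 145 and 161 and 194, 213 and 195, again with no overlap (0.40 ± 0.10).

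Among the genes of single-strand binding and flap ends, Lig1, the ligase that seals the lagging strand, was read at 9570.1, 8897 and 8319.8 in WT stem and 7255, 7047 and 7103 in KO stem. It was at 1139.7, 1125 and 1056 in WT differentiated and 1214, 1302 and 1391 in KO differentiated. The genotypes were apart in both conditions with opposite order, with log2 differences of -0.32 ± 0.07 in stem (adjusted p = 0.0178) and 0.23 ± 0.07 in differentiated organoids (adjusted p = 0.0252). Without 3 of the 6 libraries in turn each of these calls was lost, and the stem call also under 1 of 10 other alternatives. Lig1 was the only member of this role called in the interaction (0.55 ± 0.09). Fen1, which trims the flaps of the lagging strand, was at 771, 779 and 675 in WT and 993, 927 and 929.9 in KO differentiated, with a difference of 0.36 ± 0.17 that was not called. An annotated antisense gene, Gm10143, covers 78.8% of the exon bases of Fen1, with a mean of 0.980 normalised counts. Rpa1, Rpa2 and Rpa3 form the complex that coats single strands, and in WT they fell 3.61-fold, 7.55-fold and 3.06-fold. In KO their falls were 2.82-fold, 4.65-fold and 2.4-fold. The KO differentiated libraries lay above WT for Rpa1 and Rpa2 and overlapped for Rpa3, with no difference called.

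In nucleotide supply, Rrm2, the small subunit of ribonucleotide reductase and the one made mainly in S phase, had the largest fall in both genotypes. Rrm2 stood at 11453, 7003 and 6717 in WT stem and 8456, 7312 and 7508 in KO stem, and at 485, 480.1 and 416 in WT differentiated and 545, 639 and 659 in KO differentiated. The stem groups overlapped, and WT stem library 1 was well above the other two. In the differentiated condition KO lay above WT, with a difference of 0.41 ± 0.17 (adjusted p = 0.0939). Only 5.49% of the stem level was left in WT and 7.92% in KO. Rrm1, the large subunit, was at 1872, 1863 and 1644 in WT and 2353, 2506 and 2411 in KO differentiated (0.44 ± 0.10, adjusted p = 0.0101). The ratio of Rrm2 to Rrm1 counts had a mean of 0.462 in WT stem and 0.497 in KO stem, and of 0.257 and 0.253 in the differentiated groups.

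Tyms, which makes thymidylate, was read at 6686, 5139 and 5080.3 in WT stem and 5161, 5192 and 5508 in KO stem, then at 830.0, 923 and 654 in WT differentiated and 1199, 1171 and 1153 in KO differentiated. The genotypes overlapped in stem and were apart in differentiated organoids (0.56 ± 0.13, adjusted p = 0.00852). Tk1, the salvage kinase for thymidine, fell 15.4-fold in WT and 10.1-fold in KO, and its KO differentiated values of 324, 527 and 503 enclosed those of WT. Dut, which removes dUTP (ENSMUSG00000027203, GRCm38 chromosome 2, 125247190 to 125258608, plus strand), went the other way. Dut counts were 6006, 5140.5 and 4765 in WT stem and 3997, 3936 and 4239.6 in KO stem, and at 1424, 1497 and 1367 in WT differentiated and 714, 1039 and 1001 in KO differentiated. All KO libraries were below all WT libraries in both conditions, and the differentiated difference of -0.66 ± 0.13 was called (adjusted p = 0.00483). Ung, which removes uracil from DNA, fell 7.98-fold in WT and 5.1-fold in KO, with overlapping genotypes in both conditions.

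Among the genes of S-phase entry and chromatin, Uhrf1, which reads hemimethylated DNA behind the fork and recruits the maintenance methyltransferase (ENSMUSG00000001228, GRCm38 chromosome 17, 56303321 to 56323486, plus strand), had the largest genotype difference in the fall. It was read at 12430, 9136 and 8391 in WT stem and 8256, 6911 and 7204 in KO stem. It was at 710.2, 649 and 622 in WT differentiated and 946, 1099 and 1142 in KO differentiated. KO lay below WT in stem and above WT in differentiated organoids, without overlap in either. Uhrf1 kept 6.61% of its stem level in WT and 14.2% in KO, and was 1.61 times as high in KO as in WT differentiated organoids (0.68 ± 0.13, adjusted p = 0.00479).

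E2f1, an activating member of the E2F family, was read at 2677, 2098 and 2095 in WT stem and 2221, 1963 and 2060.3 in KO stem, and at 265, 264 and 252 in WT differentiated and 342, 362 and 352 in KO differentiated. Its stem groups overlapped, and its differentiated groups did not (0.43 ± 0.10, adjusted p = 0.00829). Ccne1 and Ccne2, the E-type cyclins, showed no genotype call in either condition. Ccne1 was read at 346, 437 and 343 in WT differentiated and 371, 420.2 and 355 in KO differentiated, and Ccne2 at 83.9, 100.3 and 70.4 and 69.3, 100.5 and 93.4. Both overlapped, with differences of 0.03 ± 0.20 and 0.04 ± 0.24. As a ratio of group means, the fall was larger for Ccne2 (12.1-fold in WT, 8.41-fold in KO) than for Ccne1 (4.97-fold and 4.19-fold). The ratio of Ccne1 to Ccne2 counts had a mean of 1.84 in WT stem and 4.45 in WT differentiated libraries. Ccne2 shares 17.4% of its exon bases with Ints8 on the opposite strand, which was read at a mean of 2292.

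**Figure D5:**
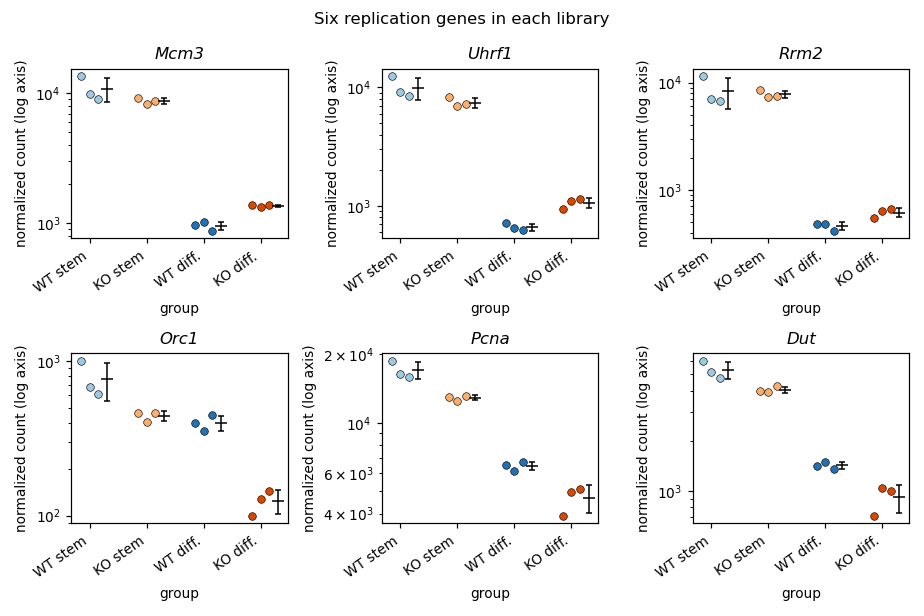
Normalised counts (log axis) of Mcm3, Uhrf1, Rrm2, Orc1, Pcna and Dut in each of the 12 libraries, with mean and SD beside the points of each group. KO lies above WT in the differentiated condition for the upper 3 genes and below WT in both conditions for the lower 3.

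Genes of the same pathways outside the 47 were listed by function. Their counts stand against all tested genes, of which 35.9% fell in WT and 33.6% in KO, 13.8% were higher and 13.9% lower in KO differentiated organoids, 3.09% were lower in KO stem organoids, and 5.12% had an interaction called above 0. Of 33 further replisome and checkpoint genes, 29 fell and 2 rose on withdrawal of Wnt-3A in WT (median -1.63), and 27 fell and 1 rose in KO (median -1.33). The largest falls were those of Clspn, a mediator of the replication checkpoint (-4.11 in WT and -3.43 in KO), and Ticrr, a firing factor (-4.00 and -3.21). In the differentiated condition 10 of the 33 were higher in KO and none lower, led by the fork protection gene Timeless (0.57 ± 0.11, adjusted p = 0.00378), and the interaction called 8, led by the nuclease and helicase gene Dna2 (1.002 ± 0.238, adjusted p = 0.0298).

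Of 17 genes of chromatin assembly at the fork, 16 fell in each genotype. Asf1b, a histone chaperone, had log2 changes of -3.82 in WT and -3.23 in KO. In the differentiated condition 5 of the 17 were called higher in KO and 1 was called lower. Hells, a chromatin remodeller, and Chaf1a, a subunit of the CAF-1 chaperone, were among the higher ones, by 0.42 ± 0.12 and 0.37 ± 0.10. The interaction called 9 of the 17, with Hells at 0.78 ± 0.17. In the stem condition 2 of the 17 were lower in KO, Cdca7 (-0.44 ± 0.10) and Ssrp1 (-0.27 ± 0.06).

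Of 23 further genes of nucleotide and folate metabolism, 22 fell in WT and 21 in KO, and 15 were higher in KO differentiated organoids with none lower. Ctps, which makes CTP, differed by 0.71 ± 0.14 (adjusted p = 0.00451), and Paics, of purine synthesis, by 0.62 ± 0.06 (adjusted p = 0.00022). The mitochondrial folate enzymes Mthfd2 and Shmt2 fell in WT, with log2 changes of -4.24 and -2.78. The interaction called 9 of the 23, with Shmt2 at 0.78 ± 0.11 (adjusted p = 0.0098).

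The E2F and Rb family, 12 genes besides E2f1, gave a mixed picture. On withdrawal of Wnt-3A 7 of the 12 fell in WT, where 35.9% of tested genes did, and 9 fell and 1 rose in KO, where 33.6% of tested genes fell. The atypical repressors E2f8 and E2f7 fell most, with log2 changes of -4.11 and -3.47 in WT and -3.40 and -2.77 in KO. In the differentiated condition 4 were lower in KO, where 13.9% of tested genes were, and 1 was higher: E2f2 differed by -1.01 ± 0.30 and the pocket protein gene Rbl1 by -0.57 ± 0.11, while E2f6, a repressor, differed by 0.43 ± 0.09. In the stem condition Tfdp2, a dimer partner of the E2F factors, was lower in KO (-0.31 ± 0.08). No interaction was called for this family, with 5 of 12 at an unadjusted p under 0.05 in the limma fit, where 27.2% of tested genes were.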

How the data were processed

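The deposited table holds 1 normalised count per Ensembl gene and library, a signal that the authors derived from reads per gene. The submitters' notes name GRCm38, Bowtie2, RSEM 1.2.11 and DESeq2 1.18.1; annotation, filters and strand use are not given in the sources used here. All values were whole multiples of 1 read per library within a tolerance of 0.05, which gave 25.1 to 99.0 M reads per library. The 14856 genes that reached a normalised count of 10 in 3 or more libraries were transformed as log2(value + 1). R 4.3.3 with limma 3.58.1 fitted the means of the 4 groups with a mean-variance trend. The 5 contrasts were two-sided, and a call required a Benjamini-Hochberg adjusted p under 0.05 over all tested genes. The limma fit was tested on simulated reads with changes in the KO differentiated group only.

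Alternatives were pseudocounts of 0.5 and 5, no filter, a mean of at least 50, TMM and quantile scaling, count tests on the recovered reads (edgeR 4.0.16, DESeq2 1.42.0), fits restricted to both groups of a contrast, replicate blocks and each library left out. The 47 members and all gene lists were chosen with earlier results of these data known. Genes named per contrast were the 6 largest called rises and falls, those called against the majority, the lowest p where fewer than 6 were called, and a panel of MCM, licensing, clamp, Rrm2, E2f1 and cyclin E genes; other members are described by their values within roles. Epithelial, fibroblast and immune marker lists, and the lists of further replisome, chromatin, nucleotide and E2F genes, are described by counts. Same-numbered KO stem and KO differentiated libraries deviated together from their group means (correlations 0.286, 0.191 and 0.256). KO stem and KO differentiated libraries of different number had -0.211 to -0.0092. No label says whether the numbers pair samples. Promoters came from RefSeq (GRCm38.p6), lengths and overlaps from GENCODE vM21. The searches for GCGTG and CCAAT were added after seeing the data.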

Additional observations from a re-analysis of the deposited data

Results flagged for a closer look

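For 23 replication genes the change on Wnt-3A withdrawal in KO differed from that in WT by the test of the difference itself, with a smaller fall in KO each time. The differences, KO log2 change minus WT log2 change, were 1.09 for Uhrf1, 0.93 for Mcm5, 0.89 for Pole, 0.88 for Mcm2, 0.87 for Rfc4, 0.86 for Mcm4, 0.84 for Pola1, 0.83 for Mcm7, 0.82 for Prim1 and 0.80 for Mcm3. They were 0.72 for Cdc45, 0.72 for Gins2, 0.72 for Cdt1, 0.71 for Orc6, 0.69 for Rfc3, 0.64 for Tyms, 0.63 for Pold1, 0.62 for Rrm1 and 0.61 for Dbf4. The smallest were 0.56 for E2f1, 0.55 for Lig1, 0.55 for Pole2 and 0.54 for Mcm6. Of the 23, 9 were called without each single library and under each other alternative: Mcm7, Orc6, Rfc4, Pola1, Pold1, Pole, Lig1, Uhrf1 and Dbf4.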

How the results depend on the processing

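All 47 falls in WT and all 47 in KO were called under every alternative. In the stem condition the 5 calls became 1 with no filter, 3 with TMM scaling, 2 with quantile normalisation, 3 with edgeR, 19 with DESeq2 and 0 with only the groups compared, and 0 to 9 with 1 library left out; none of the 5 was kept throughout. In the differentiated condition 15 to 23 members were called with 1 library left out, and 14 of 23 were kept under all alternatives. The interaction called 15 members under quantile normalisation (14 with the smaller fall in KO and 1 with the larger) and 9 to 25 with 1 library left out; the cause was not tested. Signs turned only for differences that were not called. With 1 library left out, the stem difference ranged from -0.402 to 0.0020 for Fen1, -0.210 to 0.175 for Rrm2, -0.150 to 0.049 for Tyms and -0.337 to 0.093 for Ccne1. The differentiated difference ranged from -0.050 to 0.406 for Mcm10, -0.105 to 0.073 for Gins3, -0.039 to 0.145 for Ccne1 and -0.081 to 0.203 for Ccne2. The interaction ranged from -0.157 to 0.035 for Pcna, -0.062 to 0.368 for Ccne1, -0.012 to 0.224 for Cdc7 and 0.020 to 0.314 for Gins3. Quantile normalisation gave differentiated differences of -0.012 for Mcm10, -0.073 for Gins1, -0.055 for Ccne1 and -0.089 for Ccne2, and interactions of -0.036 for Gmnn, -0.014 for Prim2 and -0.045 for Cdc7. A fit without WT stem library 1 and KO differentiated library 1, chosen after seeing the data, gave interactions of -0.041 for Gins3 and -0.043 for Ccne1, and called 29 members, 28 with the smaller fall in KO and 1 with the larger.

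With the replicate number as a block, 7 members were called in stem, 24 in differentiated organoids, 47 in each fall and 24 in the interaction, and 22 in the interaction with a block within genotype. Same-numbered libraries of different genotype had correlations of -0.051 to 0.20. Same-numbered WT stem and WT differentiated libraries had 0.107, 0.055 and 0.145, against -0.103 to 0.011 for those of different number. Whether the numbers pair the WT libraries was not tested. The scaling alternatives moved the median of all genes by less than 0.1. Each member had at least 31 reads in every library. The shallowest, WT differentiated library 3 with 25.1 M reads, was the lowest of its group for 34 of 47 members. The share of all tested genes lowest there was not computed, and the part of depth was not tested.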

Other observations

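The KO differentiated libraries differed among themselves gene by gene. KO differentiated library 1 had the lowest count of its group for 32 of 47 members and the highest for 11. Among the 32 were Mcm10 (168 against 288 and 318), Tk1 (324 against 527 and 503), Dut (714 against 1039 and 1001) and Gmnn (302 against 428 and 429). Among the 11 were Mcm7 (3952 against 3241 and 3351), Pole (1147 against 975.1 and 903) and Rfc3 (667 against 587 and 569.9). Krt20 was also lowest in that library, at 3248 against 9106 and 8947. In the WT differentiated group, library 3 had the lowest count for 34 of 47 members and was also the shallowest library, with 25.1 M reads. The shares of all tested genes lowest or highest in these libraries were not computed.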
